A study of Mus musculus with 24 samples.

Results

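The 10 genes described here encode the fibrillins *Fbn1* and *Fbn2*, elastin (*Eln*), the fibulins *Fbln1*, *Fbln2* and *Fbln5*, and the latent TGF-beta binding proteins *Ltbp1*, *Ltbp2*, *Ltbp3* and *Ltbp4*. They are 10 of the 47937 gene entries of the count table. They were chosen from measured values, because *Fbn2* RNA is lost in *6KO1* cells, so the values of *6KO1* against WT are given as a description with no test. Of the 10 genes, 9 passed the filter on low counts, and *Eln* did not.

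Fibrillins are large secreted glycoproteins that assemble into microfibrils of the extracellular matrix. Microfibrils guide the deposition of elastin into elastic fibres, and fibulins bind both components. Latent TGF-beta binding proteins are built like fibrillins, and most of them hold the inactive form of TGF-beta in the matrix until integrins or proteases release it. Fibroblasts are a main source of these proteins.

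The RNA came from mouse embryonic fibroblasts (MEFs) in 8 groups of 3 libraries, 24 in all, and every group carries a conditional (floxed) *Eset1* allele and a Cre recombinase that 4-hydroxytamoxifen (4-OHT) activates. WT is the parent clone without 4-OHT, and *E1* is the same clone after 4-OHT, which removes floxed exons of *Eset1*. In the first series, *E1 S1S2* also lacks *Suv39h1* and *Suv39h2*, and *6KO1* was made from that clone by mutating *Eset2*, *G9a* and *Glp* as well. In the second series, *E2* is an *Eset2*-mutant clone without 4-OHT, *E1E2* is the same clone after 4-OHT, *E1E2 G9Gl* was made from it by mutating *G9a* and *Glp*, and *6KO2* by then mutating *Suv39h1* and *Suv39h2*. *E1 S1S2*, *6KO1*, *E1E2 G9Gl* and *6KO2* were all treated with 4-OHT. These genes encode the H3K9 methyltransferases, enzymes that place methyl groups on lysine 9 of histone H3. By the study's methods, a further inducible Cre construct was introduced after gene disruption, and the cell lines were kept in puromycin. Each mutant line is 1 clone, so the clone, these steps and its mutations cannot be told apart. The study's methods call the 3 libraries of a group biological replicates, the labels do not say whether they came from separate cultures, and p-values measure the spread between these libraries.

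The libraries held 19541909 to 31489070 counts on genes. Levels are TMM-scaled CPM, a gene's counts relative to all gene counts of its library. The 10 fibroblast markers examined had a summed level of 5700 to 6850 CPM in WT, 3000 to 3250 CPM in *6KO1* and 7310 to 7820 CPM in *E1E2 G9Gl*, the lowest and highest groups. Of these markers, 1 passed the test as lower in *E1*, 4 in *E1 S1S2*, 2 each in *E2*, *E1E2* and *6KO2*, and 1 in *E1E2 G9Gl*, where 2 passed as higher, and 5 were at least 2-fold lower in *6KO1*. *Thy1* moved furthest, to 3, 1 and 5 counts in all in *E1 S1S2*, *6KO1* and *6KO2* from 604 in WT, but was higher in *E1E2 G9Gl* (1056 counts). Lists of 5 markers of each of 6 other cell types were also read, and between 2 and 4 genes of each were high enough to be tested. *Krt19* and *Krt8* carried the epithelial sum, which was 7.41 to 9.23 CPM in WT and highest in *E1E2 G9Gl* (107 to 110 CPM): both were higher in all 6 tested mutants, and *Krt19* went from 6.73 CPM in WT to 101 CPM in *E1E2 G9Gl*, while *Epcam* was called lower in *E1 S1S2*, *E2*, *E1E2 G9Gl* and *6KO2*. Of the smooth muscle markers, 2 each were higher in *E1E2*, *E1E2 G9Gl* and *6KO2* and 1 each in *E1* and *E1 S1S2*, 1 was lower in *E2*, and 3 were at least 2-fold higher in *6KO1*. *Des* differed by 3.17 and *Actg2* by 4.13 on the log2 scale in *E1E2 G9Gl*, although the sum, of which most is *Smtn*, was 53.1 to 71.2 CPM in WT and 47.8 to 95.6 CPM in the mutants. The endothelial sum was 0.469 to 0.631 CPM in WT, 4.83 to 5.66 CPM in *6KO1* and 3.96 to 5.45 CPM in *6KO2*, where 4 markers were higher, as were 2 in *E1E2 G9Gl* and 1 in *E1 S1S2*. The immune sum was 3.53 to 4.12 CPM in WT and 19.0 to 21.5 CPM in *6KO1*, of which 19.4 CPM was *Cd68*, with 2 markers called higher in *E1E2 G9Gl*, 1 in *6KO2* and *Adgre1* at 0 counts in every library. The chondrocyte sum was 3.1 to 5.47 CPM in WT and 0.767 to 1.00 CPM in *E1E2 G9Gl*, where *Sox9* was called lower, as in *E2*. *Col2a1* was called higher in *E1 S1S2*, *E1E2* and *6KO2*. In *6KO1*, 2 chondrocyte markers were at least 2-fold higher and 1 lower, with log2 fold changes of 5.60 for *Col2a1* and -2.08 for *Sox9*. The pluripotency markers summed to at most 1.15 CPM, and 1 of them was called higher in each of *E1*, *E1 S1S2*, *E1E2 G9Gl* and *6KO2*. Their part in the results below was not tested. *Setdb1*, the gene called *Eset1* here, was at 58.3 to 63.7 CPM in WT and 39.3 to 43.1 CPM in *E1*. In the *Eset2*-mutant clone it was at 40.2 to 55.2 CPM without 4-OHT (*E2*), and all libraries with it (*E1E2*) lay within that range, from 46.9 CPM upwards. Its gene-level RNA thus did not separate these groups. Only the floxed exons are removed, and the study reports the deletion from western blots of the protein. Frameshift mutations of the other targets need not lower their RNA. WT replicate 2 stood apart from the other WT libraries: *Fbn1* was at 376 CPM in it and at 548 and 555 CPM in the others.

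A gene passed the test where it changed at least 2-fold with an adjusted p of at most 0.01 (edgeR's quasi-likelihood test with Benjamini-Hochberg adjustment over 18565 genes). All comparisons with WT share the 3 WT libraries. These libraries also entered the choice of *Fbn2*, so no test of *Fbn2* that uses them is independent of that choice. In *E1*, 2 of the 9 genes fell, as did 2.0% of all genes tested, and none rose (2.27% of all genes). In *E1 S1S2*, 4 of 9 fell (5.11% of all genes) and none rose (6.67%). In *E2*, 3 of 9 fell (3.21%) and none rose (2.89%). In *E1E2*, 2 of 9 fell (3.23%) and none rose (5.52%). In *E1E2 G9Gl*, 3 of 9 fell (8.40%) and 2 rose (16.8%), and in *6KO2*, 3 of 9 fell (5.39%) and none rose (15.3%). In *6KO1*, 5 of 9 were at least 2-fold lower than in WT without a test (11.1% of all genes) and none was 2-fold higher (22.3%). These 5 include *Fbn2*, whose loss in this line was the reason for the choice. *Fbn2* and *Fbln5* fell in each of the 6 tested mutants, so each count of lower genes above includes *Fbn2*, the gene behind the choice of the set. *Fbln1* fell in 3 of the 6 and *Ltbp2* in 2 of the 6.

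**Figure D1:**
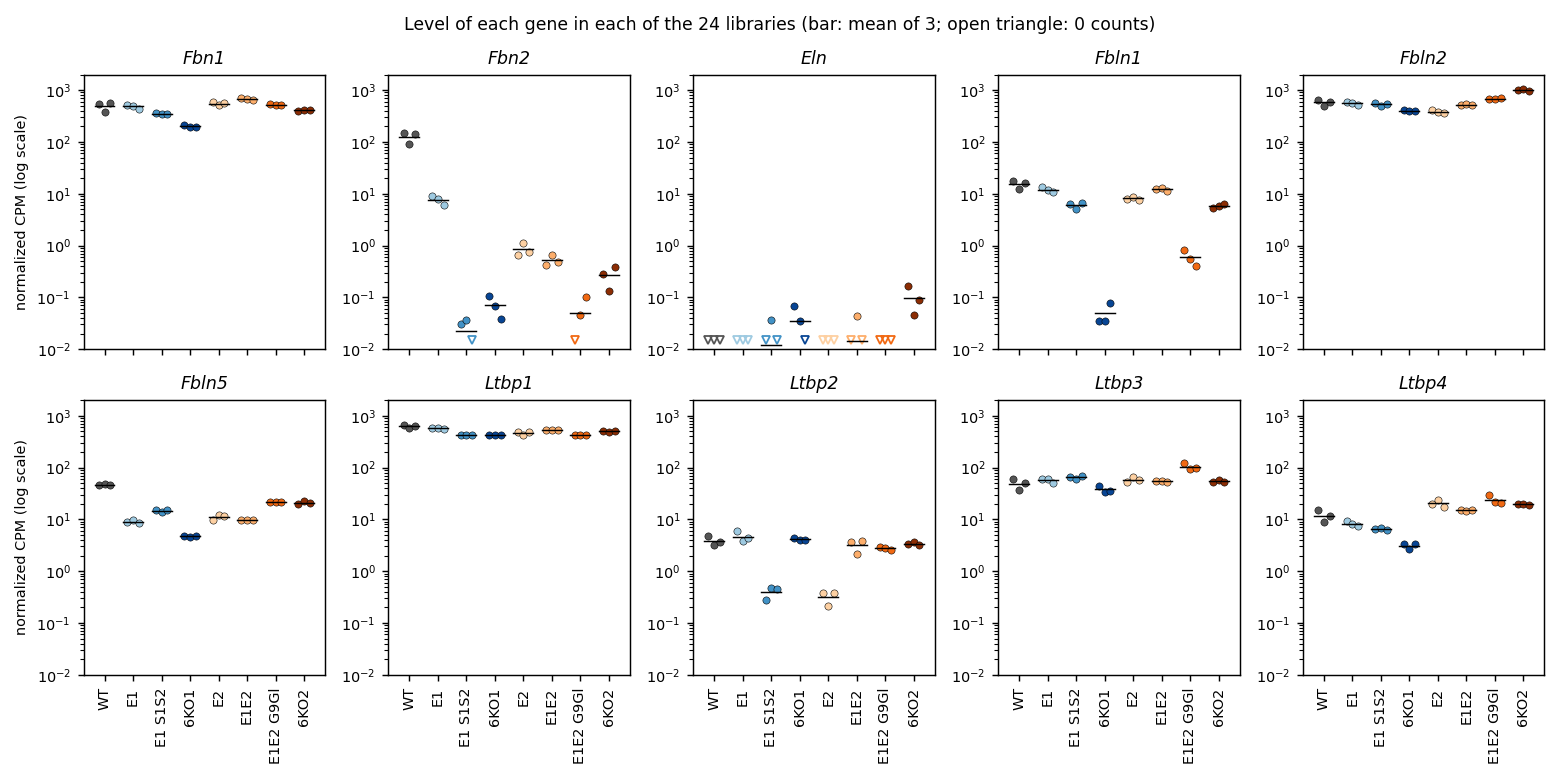
Normalized CPM on a log axis for each of the 10 genes in each of the 24 libraries, with a bar at the mean of 3 libraries and an open triangle where a library had 0 counts. *Fbn2* is high in the 3 WT libraries alone, *Fbln5* is lower in every mutant library than in every WT library, and *Eln* is at or near 0 throughout.

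**Figure D2:**
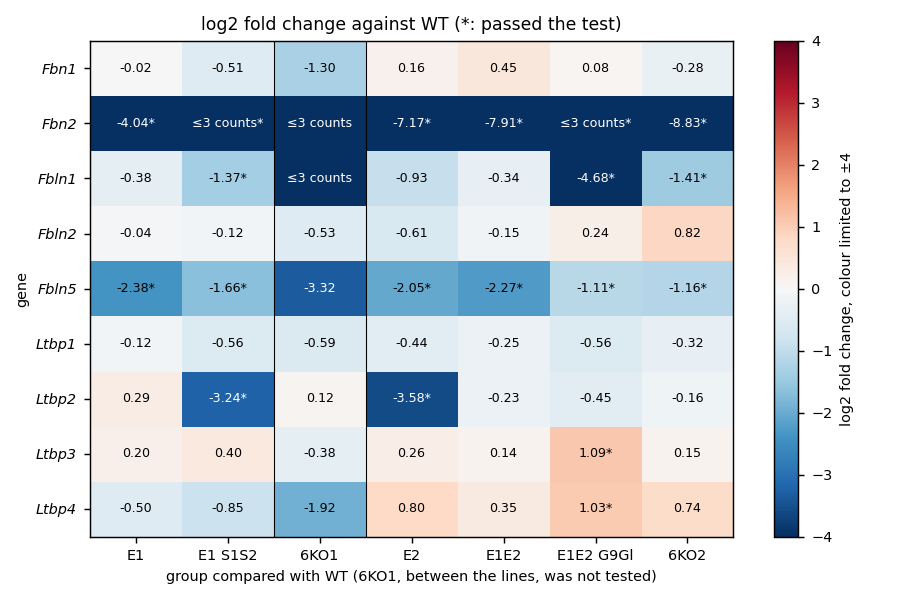
log2 fold change against WT of the 9 genes tested, by mutant group, with colour limited to 4 in either direction and an asterisk where the test was passed. *Fbn2* and *Fbln5* carry an asterisk in all 6 tested groups, and cells that read as at most 3 counts mark groups in which no library held more.

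*Fbn2* encodes fibrillin-2, the fibrillin of developing tissues. In WT it was at 146, 89.9 and 143 CPM, from 3471, 2493 and 3608 counts. In *E1* it was at 8.91, 8.07 and 6.11 CPM. The *E2* libraries had 0.658, 1.13 and 0.751 CPM and the *E1E2* libraries 0.428, 0.656 and 0.490 CPM. Every mutant library lay below every WT library, and *E1* kept more *Fbn2* RNA than any other mutant group. In these cell populations, fewer cells that make a transcript and less of it per cell cannot be told apart.

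The remaining groups held only a few reads of *Fbn2*. *E1 S1S2* had 1, 1 and 0 counts and *6KO1* had 3, 2 and 1. *E1E2 G9Gl* had 0, 1 and 2 counts and *6KO2* had 7, 3 and 9. A group with 3 counts or fewer in each library gives no usable fitted fold change, so the ratio of summed counts is given with an exact 95% interval for counting error only. WT was 5520-fold above *E1 S1S2* (1530 to 45600) and 2700-fold above *E1E2 G9Gl* (924 to 13100). For *6KO1* the ratio was 1740, given without an interval because these values were used to choose the gene. The ratio to *E1E2 G9Gl* rests on 3 reads and was 1720 without its replicate 1 and 5660 without its replicate 3. Besides *6KO1*, *Fbn2* was thus at 3 counts or fewer per library in 1 clone with unmutated *G9a* and *Glp*. The same held in *E1E2 G9Gl*, with unmutated *Suv39h1* and *Suv39h2*. RNA of both these genes was lower there than in WT. *Suv39h1* was at 77.3 to 81.4 CPM against 108 to 113 CPM, and *Suv39h2* at 14.0 to 14.6 CPM against 36.7 to 43.2 CPM.

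The p-values of *Fbn2* against WT use the WT libraries that entered its choice, and are not independent of that choice. Against WT, *Fbn2* fell by 4.04 on the log2 scale in *E1* (SE 0.169, adjusted p = 1.03e-14, edgeR), a 16.4-fold change. The log2 fold change was -7.17 in *E2* (SE 0.224, adjusted p = 3.46e-17), -7.91 in *E1E2* (SE 0.239, adjusted p = 3.01e-17). For *6KO2* it was -8.83 (SE 0.262, adjusted p = 2.30e-18). In *E1 S1S2* and *E1E2 G9Gl* the adjusted p was 1.73e-18 and 7.34e-19. The order of the levels was WT, *E1*, *E2*, *E1E2*, *6KO2*, and then *6KO1*, *E1E2 G9Gl* and *E1 S1S2*. The last 3, with 6, 3 and 2 counts in all, are not resolved: the *E1E2 G9Gl* libraries overlap those of both others. The libraries of *E2* and *E1E2* did not overlap, but their difference did not pass the test (log2 difference -0.74, SE 0.413, adjusted p = 0.244).

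The *Fbn2* gene lies at chr18:58008623-58210487 on the reverse strand (GRCm38), with 67 merged exons of 13215 bases in all, 129 of which overlap an antisense lincRNA with 4 counts over all libraries. Of the genes within 500 kb, 2 were tested. *Isoc1* was at 27.6 ± 1.86 CPM in WT (SD, n = 3) and passed the test as lower in *E1 S1S2* (7.42 ± 1.18), *E1E2 G9Gl* (10.9 ± 0.376) and *6KO2* (11.5 ± 0.951), but not in *E1*, *E2* (24.4 ± 0.219) or *E1E2* (24.7 ± 1.20). *Slc12a2*, a sodium, potassium and chloride transporter, was at 101 ± 5.21 CPM in WT and was called lower in none of the 6 tested mutants. The comparison with neighbouring genes, here and below, was chosen after values of these data were seen.

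The 5 genes whose group means were most like those of *Fbn2* were *Zfp764* (Pearson r 0.997), *Alx1* (0.991), *Rad1* (0.980), *Galnt3* (0.979) and *Slc26a10* (0.977), with r taken over the 8 groups on the log2 scale after adding 0.5 CPM. The groups share their libraries between the genes and the WT mean dominates each r, so it is a description with no test. Of these, *Alx1*, a homeobox factor of the facial mesenchyme, was at 1.18 ± 0.309 CPM in WT, 0.336 ± 0.0991 CPM in *E1* and 0 counts in *6KO1*, *E1E2 G9Gl* and *6KO2*. *Rad1*, a subunit of a DNA damage checkpoint clamp, was far higher and moved far less, from 26.8 ± 4.28 CPM in WT to 15.4 ± 1.40 CPM in *6KO2*. Among the other genes of the set, *Ltbp1* had the highest r with *Fbn2* (0.867), which ranked 284 among the genes tested. The lowest r in the set was -0.273, for *Ltbp3*.

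*Fbn1* encodes fibrillin-1, the main fibrillin of adult microfibrils, at chr2:125300594-125507993 on the reverse strand. It was at 548, 376 and 555 CPM in WT and stayed between 343 and 694 CPM in the libraries of the tested mutants, none of which passed the test. The largest tested differences from WT were -0.51 in *E1 S1S2* (log2 scale, SE 0.0944, adjusted p = 8.01e-05, edgeR) and 0.45 in *E1E2* (SE 0.0943, adjusted p = 3.70e-04), both under 2-fold. In *6KO1* it was at 210, 194 and 198 CPM, 1.30 lower than WT on the log2 scale and below every other library. *Fbn1* RNA was present in all 24 libraries, with 5125 to 17852 counts, also in the clones where *Fbn2* was down to single reads.

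*Eln* encodes elastin, the core protein of elastic fibres, at chr5:134702593-134747323. Only 12 counts fell on it in the 24 libraries, 17 of which had 0. WT, *E1*, *E2* and *E1E2 G9Gl* had 0 counts in every library, which at 3 counts allows a level of at most 0.153 CPM in any of them. *6KO2* had 4, 1 and 2 counts, and no other library exceeded 2. *Eln* was not tested, and no fold is given.

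*Fbln5* encodes fibulin-5, which binds elastin and cell-surface integrins, at chr12:101746565-101819055 on the reverse strand. It was at 46.0, 48.9 and 45.4 CPM in WT. The values were 8.95, 9.55 and 8.44 CPM in *E1*, 15.4, 14.1 and 14.9 CPM in *E1 S1S2*, and 4.76, 4.47 and 4.87 CPM in *6KO1*. They were 9.82, 12.1 and 11.8 CPM in *E2*, 9.57, 9.79 and 9.80 CPM in *E1E2*, 21.7, 22.0 and 21.3 CPM in *E1E2 G9Gl*, and 20.01, 22.4 and 20.3 CPM in *6KO2*. The highest mutant library, at 22.4 CPM, was below the lowest WT library, at 45.4 CPM.

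Against WT, *Fbln5* fell by 2.38 on the log2 scale in *E1* (SE 0.0764, adjusted p = 2.77e-17, edgeR). The log2 fold change was -2.05 in *E2* (SE 0.0754, adjusted p = 2.68e-16) and -2.27 in *E1E2* (SE 0.0764, adjusted p = 7.09e-17). It was -1.11 in *E1E2 G9Gl* (SE 0.0718, adjusted p = 1.35e-12) and -1.16 for the *6KO2* cells (SE 0.0717, adjusted p = 1.04e-12). The first series had -1.66 at *E1 S1S2* (SE 0.0726, adjusted p = 3.27e-15) and -3.32 at *6KO1*. Of the 6 other tested genes within 500 kb of *Fbln5*, 0 were lower in any of the 6 tested mutants. In *E1E2 G9Gl*, 2 of them were called higher (*Catsperb* and *Rin3*), as was 1 in *6KO2* (*Rin3*).

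*Fbln1* encodes fibulin-1, a matrix and plasma protein that binds fibronectin, at chr15:85205949-85286535 on the forward strand. WT had 17.7, 12.4 and 16.4 CPM. *E1* had 13.2, 11.6 and 11.01 CPM, *E1 S1S2* had 6.398, 5.04 and 6.54 CPM, and the *6KO1* libraries had 1, 1 and 2 counts, which puts WT 322-fold higher (95% interval for counting error 125 to 1180). In the second series they were 7.94, 8.82 and 7.60 CPM in *E2*, 12.6, 13.1 and 11.1 CPM in *E1E2*, 0.809, 0.548 and 0.409 CPM in *E1E2 G9Gl*, and 5.31, 5.82 and 6.32 CPM in *6KO2*. The lowest levels were in *6KO1* and *E1E2 G9Gl*, while *6KO2*, with the same 6 genes mutated as *6KO1*, overlapped *E1 S1S2*.

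Against WT, *Fbln1* fell by 4.68 on the log2 scale in *E1E2 G9Gl* (SE 0.193, adjusted p = 2.14e-16, edgeR), by 1.41 in the *6KO2* line (SE 0.135, adjusted p = 2.94e-09) and by 1.37 in *E1 S1S2* (SE 0.132, adjusted p = 5.35e-09). In *E2* its log2 fold change of -0.93 (SE 0.130, adjusted p = 4.75e-06) was just under 2-fold and reached -1.07 without WT replicate 2. In *E1* and *E1E2* the log2 fold changes were -0.38 and -0.34, with libraries that overlap those of WT.

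*Fbln2* encodes fibulin-2, found in the basement membranes and elastic fibres of vessels, at chr6:91212455-91272540. Its level per length was the highest of the set in every group. It was at 641, 496 and 594 CPM in WT and at 1011, 1066 and 982 CPM in *6KO2*, where all 3 libraries lay above all WT libraries (log2 fold change 0.82, SE 0.0774, adjusted p = 2.31e-09, edgeR), short of 2-fold. *E2* was at 408, 374 and 354 CPM, below every WT library (log2 fold change -0.61, SE 0.0774). *6KO1* was at 417, 393 and 391 CPM, so the lines with all 6 genes mutated lay on opposite sides of WT.

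The promoters of *Fbln5*, *Fbln1* and *Ltbp3* are shown because *Fbln5* fell in every tested mutant, *Fbln1* fell to single reads in 1 clone, and *Ltbp3* was higher in *E1E2 G9Gl*. Each is the 250 bases before a start of the gene in RefSeq (GRCm38.p6), read on the gene's own strand, at chr12:101819120-101819369 (reverse), chr15:85205699-85205948 (forward) and chr19:5740650-5740899 (forward). Capitals mark GGGCGG, the letters of a GC box, on either strand.
Fbln5: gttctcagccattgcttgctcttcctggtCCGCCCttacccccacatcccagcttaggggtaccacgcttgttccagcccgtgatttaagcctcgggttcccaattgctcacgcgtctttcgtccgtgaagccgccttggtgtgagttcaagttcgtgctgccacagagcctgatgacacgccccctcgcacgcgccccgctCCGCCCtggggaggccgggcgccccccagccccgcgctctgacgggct
Fbln1: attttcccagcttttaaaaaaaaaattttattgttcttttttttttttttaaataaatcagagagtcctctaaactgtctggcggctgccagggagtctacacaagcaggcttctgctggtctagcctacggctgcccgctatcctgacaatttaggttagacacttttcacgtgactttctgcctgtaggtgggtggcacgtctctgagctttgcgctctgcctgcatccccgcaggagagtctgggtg
Ltbp3: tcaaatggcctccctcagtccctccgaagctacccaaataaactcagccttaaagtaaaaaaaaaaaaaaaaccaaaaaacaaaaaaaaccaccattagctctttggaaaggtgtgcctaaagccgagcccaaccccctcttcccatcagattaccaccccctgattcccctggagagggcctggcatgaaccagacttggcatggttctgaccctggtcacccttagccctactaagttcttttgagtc
The *Fbln5* window holds 2 such matches and 21 CpG dinucleotides, the *Fbln1* window 0 matches and 7 CpG, and the *Ltbp3* window 0 matches and 2 CpG. Over all 32851 RefSeq windows of this length, 32.7% hold GGGCGG and the median is 6 CpG with quartiles of 2 and 16. Windows of 8 of the 10 genes were searched, and those of *Fbn2* and *Eln* were not used here. TATAAA (12.4% of all windows) and TGANTCA (6.75%) were found on neither strand in any of the 8, and TGACGTCA (1.55%) in that of *Ltbp1* alone. The table lists 2 starts for *Fbln5* and for *Fbln1*, of which the 1 nearest to the annotated gene start is shown, and a stretch of the bases after the *Fbln5* start was not found in a GENCODE transcript of the gene. The letters are a description and name no bound factor.

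*Ltbp1* was the most abundant latent TGF-beta binding protein RNA, at 653, 586 and 648 CPM in WT (chr17:75005568-75392512). All libraries of the tested mutants other than *E1* lay below all WT libraries, yet their log2 fold changes ran from -0.25 in *E1E2* (SE 0.0555) to -0.56 in *E1 S1S2* (SE 0.0557) and none reached 2-fold. In *6KO1* it was at 416, 421 and 420 CPM. *Ltbp1* RNA was within 2-fold of WT in every mutant group.

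*Ltbp2* encodes a member that binds fibrillin microfibrils but not latent TGF-beta, at chr12:84783212-84876532. WT had 4.67, 3.14 and 3.61 CPM. It was at 0.278, 0.465 and 0.462 CPM in *E1 S1S2* (9, 13 and 13 counts) and at 0.376, 0.212 and 0.375 CPM in *E2* (8, 6 and 8 counts). Every other group lay between 2.19 and 5.86 CPM.
Against WT it fell by 3.24 on the log2 scale in *E1 S1S2* (SE 0.258, adjusted p = 2.09e-10, edgeR) and by 3.58 in *E2* (SE 0.286, adjusted p = 5.86e-10). The clone made from *E1 S1S2*, *6KO1*, had 4.37, 3.92 and 4.05 CPM, and the *E2* clone after 4-OHT, *E1E2*, had 3.62, 2.19 and 3.84 CPM. Both overlapped WT. Of the 27 other tested genes within 500 kb, 1 fell in *E1 S1S2* and 0 in *E2*.

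*Ltbp3* encodes a latent TGF-beta binding protein of bone, cartilage and teeth (chr19:5740904-5758532). It was at 59.5, 37.3 and 50.5 CPM in WT and at 122, 93.4 and 98.5 CPM in *E1E2 G9Gl*, a rise of 1.09 on the log2 scale (SE 0.127, adjusted p = 7.90e-08, edgeR). The change was 0.93 without WT replicate 2 and 0.97 without *E1E2 G9Gl* replicate 1, under 2-fold in both cases. In the other tested mutants its libraries lay between 51.1 and 68.1 CPM.

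*Ltbp4* encodes a latent TGF-beta binding protein that also takes part in elastic fibre assembly (chr7:27305136-27337692). It was at 14.8, 8.80 and 11.7 CPM in WT. In *E1E2 G9Gl* it was at 28.9, 21.9 and 21.0 CPM and rose by 1.03 (log2 scale, SE 0.144, adjusted p = 8.99e-07, edgeR), which became 0.86 without WT replicate 2 and 0.87 without *E1E2 G9Gl* replicate 1. *E2* (log2 fold change 0.80) and *6KO2* (0.74) also lay above all WT libraries, short of 2-fold. In the first series the levels were lower than in WT: 6.58, 6.69 and 6.29 CPM in *E1 S1S2* (log2 fold change -0.85, and -1.02 without WT replicate 2) and 3.37, 2.65 and 3.28 CPM in *6KO1*. *Ltbp4* thus lay on different sides of WT in the mutants of the 2 series, with *E1* and *E1E2* overlapping WT.

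**Figure D3:**
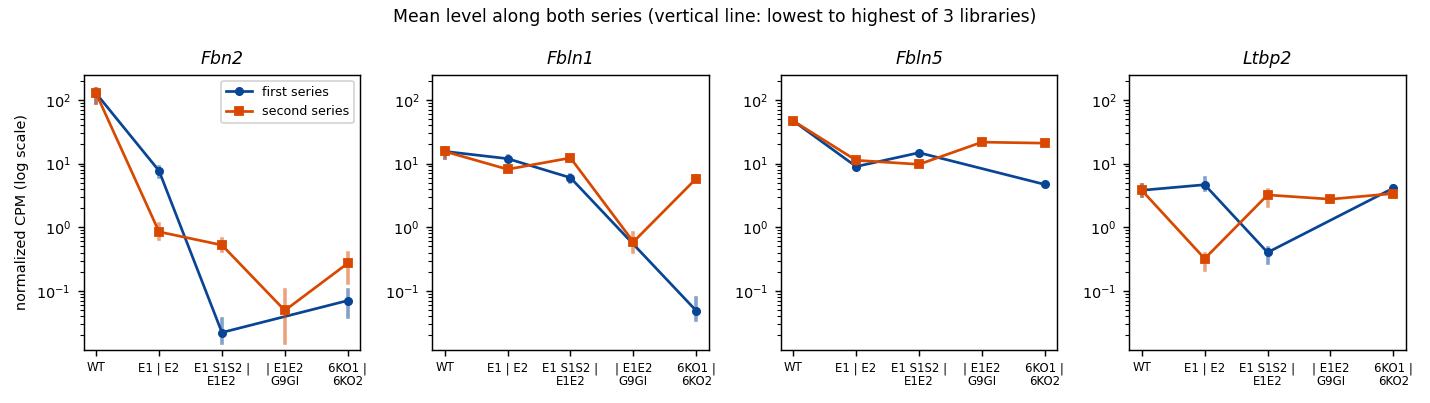
Mean normalized CPM (log axis) of *Fbn2*, *Fbln1*, *Fbln5* and *Ltbp2* along the first series (circles) and the second series (squares), with a vertical line from the lowest to the highest of 3 libraries; a line joins a clone to the one it was made from or stands next to, and libraries at 0 are drawn at the lower end. *Ltbp2* is low in *E1 S1S2* and *E2* and near WT elsewhere, and *Fbln1* is lowest in *6KO1* and *E1E2 G9Gl*.

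Neighbouring groups of each series were then compared. This asks what changed between a clone and the one it was made from, or in 1 clone on 4-OHT (*E2* to *E1E2*). From *E1* to *E1 S1S2*, 2 of the 9 genes fell (3.75% of all genes): *Fbn2*, with *E1* 338-fold above *E1 S1S2* (95% interval for counting error 93.1 to 2800), and *Ltbp2*, which fell by 3.53 on the log2 scale (SE 0.252, adjusted p = 5.39e-11, edgeR). *Fbln1*, at -0.99, was just short of 2-fold here, and passed without *E1* replicate 2 (-1.01) or 3 (-1.05) or *E1 S1S2* replicate 1 (-1.04) or 3 (-1.05). From *E1 S1S2* to *6KO1*, 3 genes fell (5.01% of all genes) and 1 rose (16.3%), with *Fbn2* not tested. *Fbln5* fell by 1.66 (SE 0.0832, adjusted p = 1.75e-14), *Ltbp4* fell by 1.07 (SE 0.176, adjusted p = 1.14e-05), *Fbln1* was 126-fold higher in *E1 S1S2* (48.9 to 464), and *Ltbp2* rose by 3.36 (SE 0.254, adjusted p = 4.23e-11).

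In the second series, *Ltbp2* alone passed the test between *E2* and *E1E2*, the same clone without and with 4-OHT, where it rose by 3.35 on the log2 scale (SE 0.292, adjusted p = 1.11e-08, edgeR; 2.32% of all genes rose). From *E1E2* to *E1E2 G9Gl*, *Fbln1* fell by 4.34 (SE 0.197, adjusted p = 1.83e-15) and *Fbn2* fell from 38 to 3 counts in all (adjusted p = 0.00105), 2 of the 9 genes against 6.79% of all genes. *Fbln5* rose by 1.16 at this step (SE 0.0778, adjusted p = 3.56e-12), 1 of 9 against 14.8%. From *E1E2 G9Gl* to *6KO2*, *Fbln1* rose by 3.27 (SE 0.213, adjusted p = 4.19e-12), 1 of 9 against 7.19%, and the *Fbln5* libraries of both groups overlapped. *Ltbp3* was at 0.95 from *E1E2* to *E1E2 G9Gl* and at -0.94 from there to *6KO2*, and without *E1E2 G9Gl* replicate 2 these became 1.02 and -1.04, past 2-fold.

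The lines *6KO1* and *6KO2* have the same 6 genes mutated, in a different order. In *6KO1*, 5 of the 9 genes were lower than in *6KO2*, as were 7.10% of all genes, with *Fbn2* not tested. *Ltbp4* was lower by a log2 difference of -2.66 (SE 0.166, adjusted p = 1.83e-12, edgeR), *Fbln5* by -2.15 (SE 0.0830), *Fbln2* by -1.35 (SE 0.0783) and *Fbn1* by -1.02 (SE 0.0955, adjusted p = 2.80e-09). *Fbln1* was 122-fold higher in *6KO2* (95% interval for counting error 47.2 to 449). The *Fbn1* difference was just under 2-fold without *6KO1* replicate 2 (-0.99) and likewise without *6KO2* replicate 3, and -0.98 when only genes averaging over 100 normalized counts were tested. These comparisons use the *6KO1* libraries in which *Fbn2* was seen to be lost. *Ltbp2* did not pass the test between these lines (log2 difference 0.28, SE 0.189, adjusted p = 0.201).

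The change on 4-OHT was also compared between the WT clone and the *Eset2*-mutant clone, by a test of the difference between both changes. It differed for 3 of the 9 genes, against 3.45% of all genes. *Fbln5* fell in the WT clone and was at a log2 difference of -0.21 in the *Eset2* mutant, with no call (difference of both -2.17 on the log2 scale, SE 0.111, adjusted p = 3.74e-13, edgeR), *Fbn2* changed more in the WT clone (-3.30, SE 0.499, adjusted p = 4.61e-05), and *Ltbp2* rose in the *Eset2* mutant, against 0.29 with no call in the WT clone (-3.06, SE 0.358, adjusted p = 1.11e-06). *Fbln1* was just short of the 2-fold limit (-0.97, SE 0.182, adjusted p = 5.11e-04) and passed it without WT replicate 2 (-1.11), *E1* replicate 1 (-1.05), *E2* replicate 2 (-1.04) or *E1E2* replicate 3 (-1.03). The Suv39h step of the first series was set against that of the second in the same way, and 4 of the 9 genes differed, against 16.5% of all genes. *Fbln1* (-4.26, SE 0.252, adjusted p = 1.37e-12), *Ltbp2* (-3.82, SE 0.331, adjusted p = 1.06e-09) and *Ltbp3* (1.14, SE 0.179, adjusted p = 1.33e-05) passed, and *Fbn2* passed with groups at single reads, so that no size is given.

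Levels were compared between genes per kilobase of merged exon. In WT the order was *Fbln2* (90.6 CPM per kb), *Ltbp1* (58.8), *Fbn1* (40.7), *Fbn2* (9.56), *Fbln5* (6.77), *Ltbp3* (5.41), *Fbln1* (3.55), *Ltbp4* (1.82), *Ltbp2* (0.465) and *Eln* (0). Libraries of *Fbn2* and *Fbln5* overlapped in this order and no other neighbours did. Per length of the longest transcript, *Ltbp3* (8.57) came before *Fbln5* (8.02). In *6KO1* the same 3 genes led, with *Fbln2* at 62.9, *Ltbp1* at 39.2 and *Fbn1* at 16.5 CPM per kb, and *Fbn2* was among the last with 0.00534 CPM per kb. The genes with the highest levels in WT were thus present in every group, and the genes that fell by the largest factors came from the middle and lower part of the order.

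**Figure D4:**
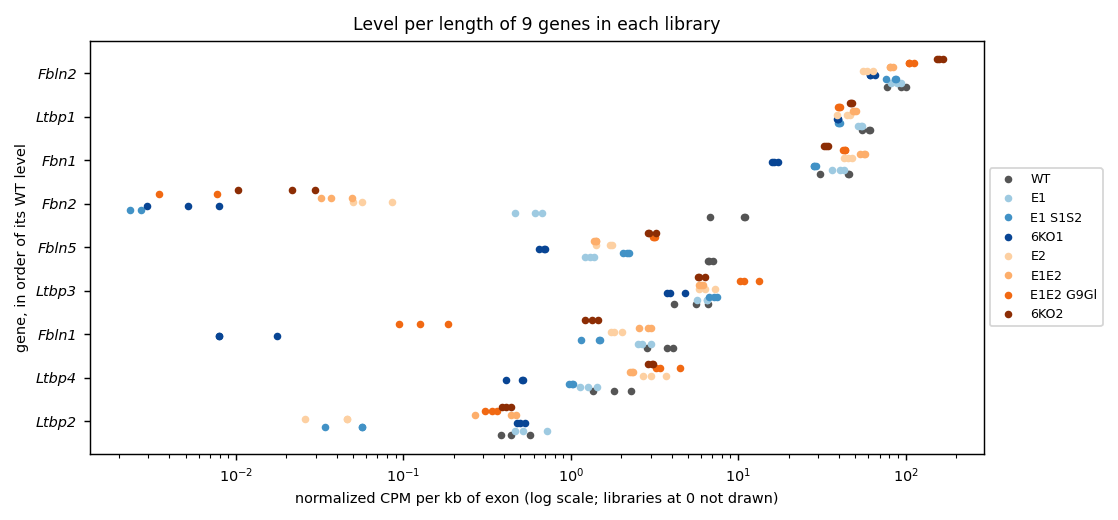
Normalized CPM per kb of merged exon (log axis) of 9 genes in each library, in the order of their WT means, with one colour per group and libraries at 0 left out. *Fbln2*, *Ltbp1* and *Fbn1* stay together at the upper end in all groups. The *Fbn2* points lie at 6.80 to 11.05 CPM per kb in WT and under 0.1 in the mutants other than *E1*.

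Around these genes, 53 others were examined in 6 lists, and 44 passed the filter. Against WT, 1 rose and 6 fell in *E1*, 2 rose and 10 fell in *E1 S1S2*, 1 rose and 6 fell in *E2*, 8 rose and 6 fell in *E1E2*, 6 rose and 8 fell in *E1E2 G9Gl*, and 10 rose and 7 fell in *6KO2*. In *6KO1*, 10 were at least 2-fold higher and 11 at least 2-fold lower, without a test. The shares of all genes given above for each group are the background for these counts.

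Of the 16 microfibril and elastic fibre partners, 9 passed the filter, 2 or 3 of which fell in each tested mutant while 3 rose in *E1E2 G9Gl* alone, and the median log2 fold change ran from -0.778 in *E1* to 0.596 in *E1E2 G9Gl*, where the median of all genes lay within 0.0614 of 0 in every comparison. *Mfap2*, a small protein bound to fibrillin, was at 5.74 ± 0.695 CPM in WT (SD, n = 3) and fell in all 6 tested mutants. The gene fell by 1.54 on the log2 scale in *E1* and by 5.91 in *E1 S1S2*, where it had 1, 4 and 3 counts. It was at 0.163 ± 0.139 CPM in *6KO1*. *Mfap5*, its relative, fell in 5 of the 6 but was at 3.41 ± 0.540 CPM in *E1E2 G9Gl*, against 2.23 ± 0.205 CPM in WT. *Efemp1*, fibulin-3, had 2 counts in all WT libraries together and 40 in those of *E1E2 G9Gl*, where it passed the test as higher, and *Adamtsl4*, which binds fibrillin-1, rose by 1.92 in the same group.

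The cross-linking enzymes join elastin and collagen chains. Of the 5, all passed the filter, and *Loxl4* rose in 4 of the 6 tested mutants, from 39.3 ± 4.47 CPM in WT to 168 ± 3.29 CPM in *E1E2 G9Gl* (log2 fold change 2.10) and 131 ± 5.12 CPM in *6KO2* (1.73). *Lox* itself was at 585 ± 15.3 CPM in WT and fell by 1.31 in *E1* and by 1.31 in *E1 S1S2*, and it was at 143 ± 5.59 CPM in *6KO1*. In the second series it did not pass the test, and apart from *Lox* and *Loxl4* no member of the list did in any tested mutant.

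Of the 8 TGF-beta ligands and receptors, 7 passed the filter, and 3 rose in *E1E2* and in *6KO2*. *Tgfbr2*, the type II receptor, was at 390 ± 53.6 CPM in WT and fell by 1.21 on the log2 scale in *E1*, by 1.40 with *G9a* and *Glp* mutated (*E1E2 G9Gl*) and by 1.41 in *6KO2*. *Lrrc32*, which holds latent TGF-beta on the cell surface, rose in 4 of the 6 tested mutants, by 1.23 to 1.89. The ligands *Tgfb1* and *Tgfb2* rose in *E1E2* (1.37 and 1.33) and *6KO2* (1.29 and 1.57). The third ligand, *Tgfb3*, named here after its values were seen, fell in the same groups (log2 fold changes -1.29 and -1.01), so that 1 gene of the list fell in *E1E2* and 2 in *6KO2*. The median of the list lay between -0.0643 in *E1E2 G9Gl* and 0.979 in *E1E2*.

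Of the 9 integrins and proteins that act on latent TGF-beta or its matrix, all passed the filter, and 1 or 2 fell in each tested mutant. *Itgb8*, a subunit of an integrin that activates TGF-beta, was at 13.1 ± 0.221 CPM in WT and fell in all 6 tested mutants, by 1.10 on the log2 scale in *E1 S1S2* and by 2.60 in *6KO2*. It was at 0.396 ± 0.0790 CPM in *6KO1*. *Itgb6*, another such subunit, was at 0.195 CPM in WT on average and rose by 2.79 in *E1E2* and 3.17 in *6KO2*, and *Itgb3* rose by 1.5 in *6KO2*. *Thbs1*, thrombospondin-1, fell in 4 of the 6 tested mutants, by 1.00 to 1.34.

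The 8 TGF-beta response genes all passed the filter; 3 fell in *E1 S1S2* and in *E1E2 G9Gl*, and 3 rose in *6KO2*. They had a median log2 fold change between -0.85 in *E2* and 0.311 in *6KO2*, and -1.04 in *6KO1*. *Tagln*, an actin-binding protein of contractile cells, was at 380 ± 61.7 CPM in WT and had log2 fold changes of -3.82 (*E1 S1S2*), -1.90 (*E2*) and -2.62 (*E1E2 G9Gl*), all of which passed. *Ccn2*, a matricellular growth factor, fell by 1.31 in *E1 S1S2* and 1.37 in *E1E2 G9Gl*, whereas in *6KO2* it was at 340 CPM beside 338 CPM in WT. *Smad7*, an inhibitor of TGF-beta signalling, rose by 1.05 in *E1E2*, by 1.06 with *G9a* and *Glp* also mutated and by 2.16 in *6KO2*, where *Cnn1* rose by 1.21. Members of the list thus moved in both directions, also within 1 group.

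Of the 7 proteases of elastin and matrix, 6 passed the filter. *Mmp12*, the macrophage elastase, had 0 counts in WT and 28, 39 and 33 counts in *E1E2 G9Gl*, which is at least 39.4-fold higher with 3 counts taken for all WT libraries together. *Ptprc*, a marker of immune cells, had 0 counts in WT and 42, 41 and 39 counts in *E1E2 G9Gl*, but also 52 counts in all in *6KO1* and 51 in *6KO2*, where *Mmp12* had 5 and 4. *Cd3e* went from 0 in WT to 1.66 ± 0.208 CPM in *E1E2 G9Gl*. *Cd68* was at 3.40 ± 0.573 CPM there and at 3.89 ± 0.340 CPM in WT, and *Adgre1* had 0 counts. The part of such cells in the result was not tested. *Mmp9*, gelatinase B, rose by 2.73 on the log2 scale in *E1*, 2.13 in *E1E2* and 1.21 in *6KO2*, and fell by 2.36 in *E1E2 G9Gl*.

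**Figure D5:**
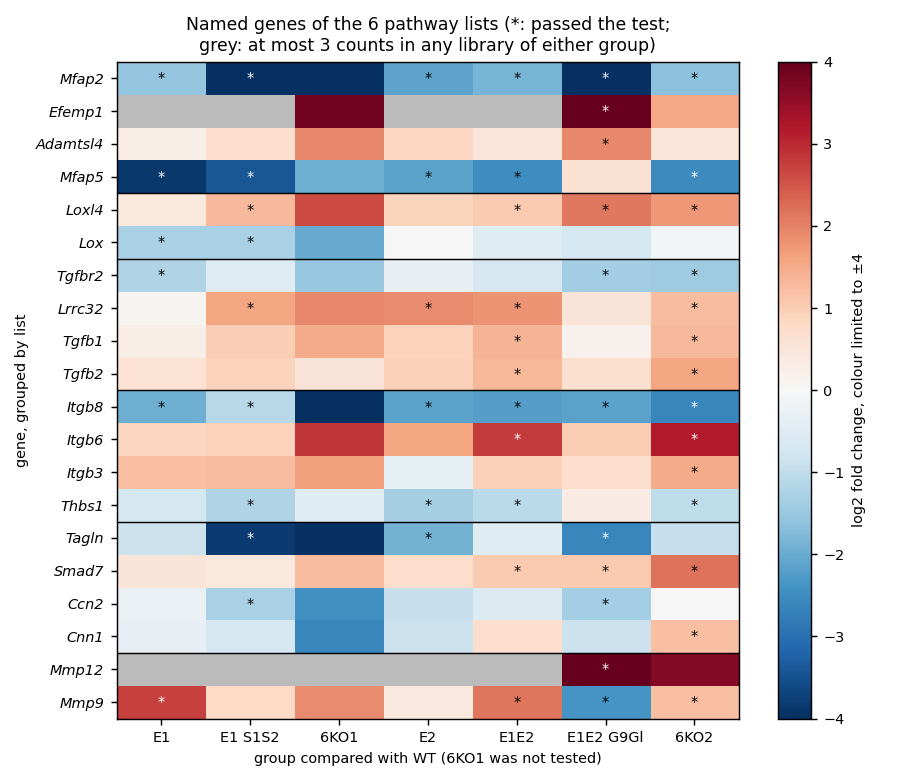
log2 fold change against WT, by mutant group, of the 20 named genes from the 6 lists, with colour limited to 4 in either direction, an asterisk where the test was passed and grey where neither group held more than 3 counts in a library. *Mfap2* and *Itgb8* carry an asterisk in all 6 tested groups, and *Mmp9* passed the test as higher in 3 groups and as lower in *E1E2 G9Gl*.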

How the data were processed

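RNA from 24 MEF libraries, 3 in each of 8 groups, was sequenced with a stranded protocol. The authors trimmed reads with cutadapt 1.8.1, aligned them to GRCm38 with STAR 2.5.2b and counted them with TEtranscripts, and deposited raw counts per gene and repeat element. The strand setting of the counting is not given in the sources used here. Groups came from the sample titles and genotypes; the treatment field names 4-OHT for every sample, and the titles, which mark WT and *E2* as controls, were followed. The 1 entry without a name (at most 0.00271% of counts) was left out.

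Genes were filtered with filterByExpr by group (18565 kept), scaled with TMM factors and tested with edgeR 4.0.16 (R 4.3.3; quasi-likelihood, two-sided, all 24 libraries, 1 coefficient per group, Benjamini-Hochberg). Genes were called at 2-fold or more and an adjusted p of at most 0.01. On simulated counts for 17492 genes, set as *6KO2* against WT, 176 of 200 changed genes and 0 others were called. All 200 were changed beyond 2-fold, every gene had the same spread, and the groups were otherwise alike. The result is a check of the fit and gives no rate of false calls for these data. The genes and lists were chosen with earlier results of these data known. Of the 6 lists, at most 4 genes each are named, those with the largest absolute mean change over *E1E2 G9Gl*, *6KO2* and *6KO1* among genes called in 1 of the first 2 groups or past 2-fold in *6KO1* with libraries apart from WT. The 5 genes most like *Fbn2* were chosen by Pearson r over group means. Gene counts per library ranged from 19541909 to 31489070. Relative to the TMM-scaled library sizes, 3 counts are 0.0927 to 0.153 CPM. Intervals are exact conditional binomial ones (scipy 1.17.1) and cover counting error only. Lengths, positions and overlaps come from GENCODE vM21, and promoter sequences from RefSeq GRCm38.p6. Alternatives were DESeq2 1.42.0, RLE factors, factors from genes and repeats together, no filter, calls by adjusted p alone, genes averaging over 100 normalized counts, fits on the 6 libraries compared, the replicate number as a block, each library left out, and the longest transcript as length. The repeat elements were used for that scaling alone. Figures were drawn with matplotlib 3.10.9.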

Additional observations from a re-analysis of the deposited data

Results flagged for a closer look

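Some results stood out because the same mutation step gave different changes in different clones, by a test of the difference itself (edgeR, adjusted over all genes). For the change on 4-OHT in the WT clone minus that in the *Eset2*-mutant clone, the log2 difference was -3.30 for *Fbn2*, -2.17 for *Fbln5* and -3.06 for *Ltbp2*. For the Suv39h step of the first series minus that of the second, it was -4.26 for *Fbln1*, -3.82 for *Ltbp2* and 1.14 for *Ltbp3*. The clones of the 2 series differ in more than this step, and clone and mutation cannot be told apart. The differences for *Fbn2* and *Ltbp2* rest in part on groups with 6 to 32 counts per library.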

How the results depend on the processing

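Under DESeq2, RLE factors, factors from genes and repeats together and the replicate block, each of the 107 fold changes compared kept its direction and its call, which needs both 2-fold and the adjusted p. For 3 changes under 2-fold (*Fbn1* in *6KO2*, *Fbln2* in *E1E2 G9Gl* and *Ltbp3* in *E1 S1S2*, all against WT) the adjusted p crossed 0.01 under at least 1 of these settings. With the replicate block, *Fbln5* in *6KO2* against WT was -1.16. In 1 of 28 pairs of groups every correlation of same-numbered libraries was over 0.1 (mean 0.013, from -0.432 to 0.406). The labels do not say whether same-numbered libraries were handled together, so any pairing remains unknown. Without a filter, *Eln* counted as 2-fold higher in *6KO1*, which gave 1 gene, and the Suv39h step of the second series gave 2 higher genes. With a mean normalized count above 100, lower calls from *E1* to *E1 S1S2* numbered 1 and higher calls from *E1 S1S2* to *6KO1* and from *E2* to *E1E2* 0, since *Ltbp2* was not tested. With only the libraries compared, 1 gene fell from *E1E2* to *E1E2 G9Gl*, since *Fbn2* was not tested. Without a fold change minimum, against WT 7 genes fell in *E1 S1S2*, 6 fell and 1 rose in *E2*, 1 rose in *E1E2* and 2 rose in *6KO2*. At the steps, 5 fell and 1 rose from *E1* to *E1 S1S2*, 6 fell to *6KO1*, 3 rose from *E2* to *E1E2*, 4 rose and 4 fell to *E1E2 G9Gl*, and 3 rose and 2 fell to *6KO2*. The clone comparisons then gave 6 lower genes on 4-OHT, and 2 higher and 5 lower at the Suv39h step. By adjusted p alone, *Ltbp1* also passed as lower against WT in *E1E2*, *E1E2 G9Gl* and *6KO2*. *Fbln2* also passed as higher in *E1E2 G9Gl* against WT, and *Ltbp1* and *Ltbp3* as lower in *6KO1* against *6KO2*. The share of all genes passing by adjusted p alone is not given here. The shares given above need 2-fold, so they are no background for these counts. Leaving out 1 library gave 0 to 2 higher genes in *E1E2 G9Gl* against WT, 1 to 2 from *E1E2* to *E1E2 G9Gl*, and 0 to 1 lower from there to *6KO2*. With the longest transcript as length, *Ltbp3* (8.57 CPM per kb) stood above *Fbln5* (8.02) in WT, the reverse of their order per merged exon. The median log2 fold change of all genes in a comparison reached 0.0715 under another scaling and 0.163 with no filter. Depth limits *Fbn2*, *Fbln1*, *Eln* and *Mfap2* where a library holds single reads.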
